A study of Homo sapiens with 4 samples.

Results

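The 36 genes described here encode aminoacyl-tRNA synthetases, 20 cytosolic enzymes and 16 mitochondrial ones (symbols ending in ARS2). They were picked by symbol from a table of 16692 genes, and all 36 were found, each in 1 row. Ribosome footprints (mRNA fragments protected by ribosomes) and RNA had been counted per gene in SNU-668, an established human gastric cancer cell line that the series text describes as resistant to erastin, an inducer of ferroptosis. Since RLS3, not erastin, stands in the names of the libraries, the resisted agent is uncertain. The first pair of libraries came from cells labelled ALKBH3 knockdown, which carried an shRNA against the nucleic acid demethylase ALKBH3, with 1 footprint and 1 RNA library. The second pair came from cells labelled WT, which carried a control shRNA, again with 1 library of each kind. Both groups thus share the line, the resistance and shRNA delivery. Whether the cells were a clone or a pool is not given here.

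An aminoacyl-tRNA synthetase joins an amino acid to its tRNA, the step that fixes the genetic code before the ribosome reads it. Human cells keep separate nuclear genes for most cytosolic and mitochondrial enzymes, while GARS and KARS each serve both compartments. The enzymes fall into 2 unrelated structural classes, and several of the cytosolic ones sit in a multi-synthetase complex. Many cytosolic synthetase genes are known targets of ATF4, the transcription factor induced when amino acids run short.

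The footprint libraries held 3742513 counts (knockdown-labelled) and 3795680 counts (control), and the RNA libraries 689375 (knockdown-labelled) and 554075 (control). ALKBH3 itself had 22 footprints in the knockdown-labelled and 14 in the control library, a log2 ratio of 0.59 (-0.37 to 1.54), and 0 RNA counts in both, so the label is not borne out by the counts, and each direction below is between the library labelled as the knockdown and the control library. Of the epithelial markers looked for, KRT18 had 538 footprints (knockdown-labelled) and 462 (control), while KRT8 had 15 and 17, KRT19 3 and 4, and EPCAM 2 and 0 in those libraries. Of leukocyte markers PTPRC had 0 in both and CD14 2 and 0, and VWF, an endothelial marker, had 15 and 13, as few as KRT8. A log2 ratio below is the knockdown-labelled over the control library, with a 95% counting interval in parentheses. A gene is called measured with at least 100 footprints over both libraries. With 1 library in each group there is no replicate check and no p-value. Over all 7050 measured genes the log2 ratios had an SD of 0.362 against a median counting error of 0.145, so the intervals are narrower than the spread between these libraries.

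Of the 36 synthetases, 29 were measured, 15 cytosolic and 14 mitochondrial. In the cytosolic set 6 intervals lay above 0, 3 below and 6 held 0. Among all 7050 measured genes, 18.2% had an interval above 0 and 22.3% below. The share of cytosolic enzymes above 0, 6 of 15, was thus larger than over all genes, and the 3 of 15 below were near the background. Whether an interval leaves out 0 also depends on depth. The 6 had counting errors between 0.036 and 0.081, against a median of 0.145 over all genes, so these shares are not compared at like depth. In the mitochondrial set 1 interval lay above 0, 4 below and 9 held 0. That is 7.14% above and 28.6% below, and over 14 genes both numbers lie near the shares over all genes. None of the 29 was at least 2-fold higher or 2-fold lower, against 0.879% and 0.426% of all genes. WARS lay at that limit and passed it under 3 other scalings, at 1.02 with median-of-ratios size factors, 1.06 with plain totals and 1.12 with the deposited RPKM.

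**Figure D1:**
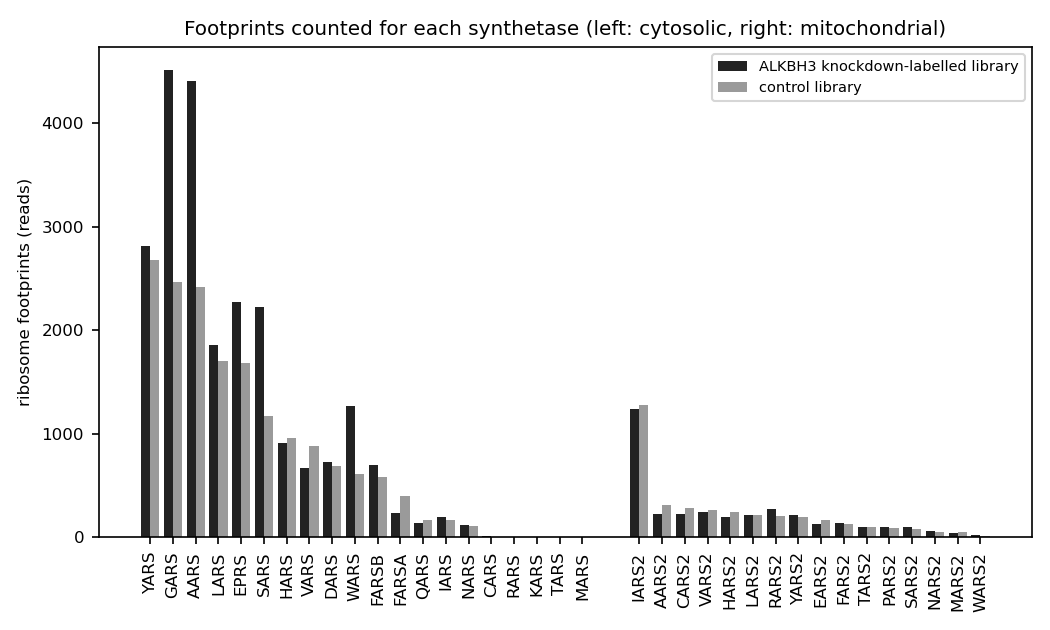
Ribosome footprints (reads, linear axis from 0) counted for each of the 36 synthetases in the ALKBH3 knockdown-labelled library (black) and the control library (grey), with cytosolic enzymes on the left and mitochondrial ones on the right, each ordered by the control count. GARS and AARS have the highest counts in the knockdown-labelled library, at 4513 and 4412, IARS2 stands above the other mitochondrial enzymes, and 5 cytosolic enzymes have between 0 and 14 footprints.

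The cytosolic enzymes with the most added footprints were those for glycine, alanine, serine and tryptophan. GARS, the glycyl enzyme of both compartments (ENSG00000106105, chromosome 7, 30634297 to 30673649, plus strand, hg19), had 4513 footprints in the knockdown-labelled library, against 2471 in the control. Its log2 ratio was 0.82 (0.75 to 0.89), a 1.77-fold difference. AARS, the alanyl enzyme (ENSG00000090861, chromosome 16, 70286198 to 70323446, minus strand), had 4412 footprints in the knockdown-labelled library and 2422 in the control. Its log2 ratio of 0.82 (0.75 to 0.89) lay within 0.01 of that of GARS.

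SARS, which charges serine and also primes the selenocysteine tRNA with serine (ENSG00000031698, chromosome 1, 109756540 to 109780742, plus strand), had 2225 footprints in the knockdown-labelled library, against 1171 in the control. Its log2 ratio was 0.88 (0.78 to 0.98). WARS, the tryptophanyl enzyme, known also as an interferon-induced gene (ENSG00000140105, chromosome 14, 100800155 to 100843142, minus strand), had 1273 footprints in the knockdown-labelled library, against 617 in the control. Its log2 ratio of 0.998 (0.86 to 1.14) was the highest of the 29. Among the 7050 genes by log2 ratio, WARS ranked 63rd from the top, SARS 99th, GARS 127th and AARS 129th.

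These 4 enzymes, grouped after their values were seen, summed to 12423 footprints in the knockdown-labelled library, against 6681 in the control, a log2 ratio of 0.85 (0.81 to 0.89). The other 16 cytosolic members summed to 10685 and 10047, a log2 ratio of 0.04 (0.00 to 0.08). In raw counts, not scaled for the libraries, the 4 thus held 5742 of the added cytosolic footprints and the other 16 held 638. All 20 together took 0.617% of footprints in the knockdown-labelled library (exact Poisson interval 0.610% to 0.625%) and 0.441% in the control (0.434% to 0.447%). These shares use plain totals, with which the log2 ratio was 0.49. On the scaled totals used for the log2 ratios here it was 0.42 (0.39 to 0.45).

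A smaller difference was seen for 2 further cytosolic enzymes. EPRS, a fusion of glutamyl and prolyl synthetases, had 2276 footprints in the knockdown-labelled library, against 1683 in the control, at 0.39 (0.30 to 0.48). FARSB, the beta subunit of the phenylalanyl enzyme, had 696 footprints (knockdown-labelled) and 583 (control), at 0.21 (0.05 to 0.37). Their intervals do not reach those of the 4 enzymes above.

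The intervals of 6 cytosolic enzymes held 0. YARS, the tyrosyl enzyme, had 2815 footprints in the knockdown-labelled library and 2680 in the control, at 0.02 (-0.05 to 0.10). LARS, the leucyl enzyme and a leucine sensor upstream of mTORC1, had 1861 (knockdown-labelled) and 1701 (control), at 0.08 (-0.01 to 0.18). Their counts are as deep as those of the enzymes that differed, and the upper bounds of 0.10 and 0.18 lie below the lower bounds of WARS, SARS, GARS, AARS and EPRS. Whether they left out 0 turned on the scaling: YARS was at 0.09 (0.01 to 0.17) with plain totals and 0.14 (0.07 to 0.22) with RPKM, and LARS at 0.15 (0.06 to 0.24) and 0.20 (0.11 to 0.30), and at 0.10 (0.01 to 0.20) with size factors. DARS, the aspartyl enzyme, was at 0.03 (-0.12 to 0.18), with 730 footprints in the knockdown-labelled library and 692 in the control. HARS, the histidyl enzyme, had 916 (knockdown-labelled) and 961 (control), at -0.12 (-0.25 to 0.01), and was at 0.00 with the deposited RPKM. IARS, the isoleucyl enzyme, had 202 (knockdown-labelled) and 168 (control), at 0.22 (-0.08 to 0.51). NARS, the asparaginyl enzyme, had 124 (knockdown-labelled) and 109 (control), at 0.14 (-0.23 to 0.51). The intervals of IARS and NARS hold the value of EPRS as well as 0, so at this depth neither can be told apart. With RPKM that of IARS left out 0, at 0.34 (0.04 to 0.63).

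Lower footprints in the knockdown-labelled library were counted for 3 cytosolic enzymes. FARSA, the alpha subunit of the phenylalanyl enzyme (ENSG00000179115, chromosome 19, 13033294 to 13044529, minus strand), had 240 footprints in the knockdown-labelled library, against 401 in the control. Its log2 ratio was -0.79 (-1.02 to -0.56), the lowest of the 29. VARS, the valyl enzyme, had 672 footprints (knockdown-labelled) and 886 (control), at -0.45 (-0.59 to -0.30). QARS, the glutaminyl enzyme, had 137 (knockdown-labelled) and 171 (control), at -0.37 (-0.69 to -0.04). The interval of QARS held 0 with plain totals, at -0.30 (-0.62 to 0.03), and with RPKM, at -0.25 (-0.57 to 0.08). FARSA and FARSB form 1 enzyme of paired alpha and beta subunits, yet their log2 ratios differed by -0.99 (-1.27 to -0.71), alpha minus beta. Per length, the deposited footprint RPKM (reads scaled by length and library depth) of FARSA was 0.545 times that of FARSB in the knockdown-labelled library and 1.09 times in the control.

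**Figure D2:**
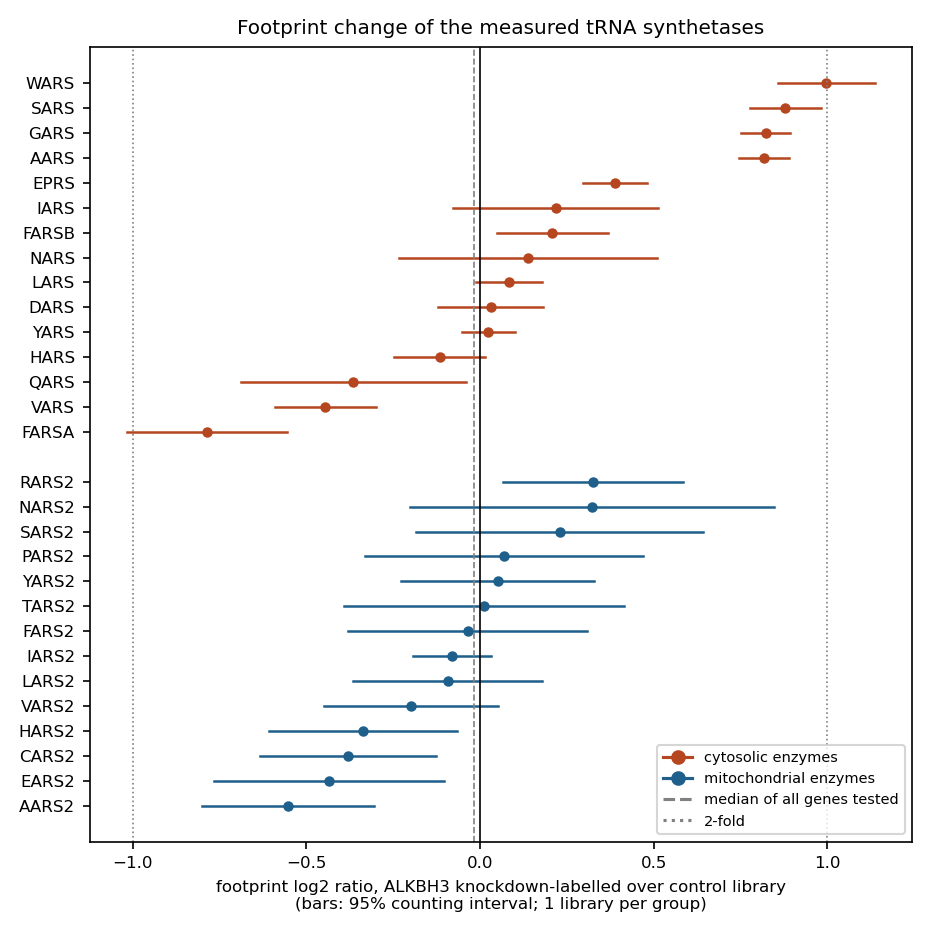
Footprint log2 ratio of the 29 measured synthetases, knockdown-labelled over control library, with 95% counting intervals as bars, cytosolic enzymes above and mitochondrial ones below. WARS, SARS, GARS and AARS lie between 0.82 and 0.998, clear of the other enzymes, while FARSA is the lowest at -0.79.

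Another 5 cytosolic members were under the filter, with almost no footprints to compare. CARS, the cysteinyl enzyme, had 14 footprints in the knockdown-labelled library and 7 in the control, KARS, the lysyl enzyme, 1 (knockdown-labelled) and 2 (control), and RARS, the arginyl enzyme, 1 (knockdown-labelled) and 3 (control). MARS, the methionyl enzyme, and TARS, the threonyl enzyme, had 0 in both, which allows up to 0.783 counts per 1000000 (CPM) in the knockdown-labelled and 0.809 CPM in the control library. These limits hold for the rows of the table and bound no translation, since every cell uses these enzymes and 9.07% of 13934 protein-coding genes were at 0 in both footprint libraries. The number of footprints that makes up 1 RPKM is proportional to the length over which the authors counted. It was 0.407 for RARS, 0.631 for CARS, 0.793 for KARS and 1.29 for NARS in the control, against 20.6 for AARS and a median of 7.72 over protein-coding genes. Only 6.76% of 12033 protein-coding genes with footprints were under 1.5. These 4 enzymes were thus counted over a short stretch, and their counts say little of the whole message. The next lowest were NARS2 at 2.06, WARS2 at 2.88, QARS at 2.97, IARS at 3.26 and TARS2 at 4.03. Their counts too come from a stretch shorter than the median.

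The mitochondrial enzymes had a median near that of all genes, with single members on both sides of it. RARS2, the arginyl enzyme, had 272 footprints in the knockdown-labelled library, against 210 in the control, at 0.33 (0.07 to 0.59), and was the 1 with an interval above 0. AARS2, the alanyl enzyme, had 223 (knockdown-labelled) and 317 (control), at -0.55 (-0.80 to -0.31). EARS2, which charges glutamate, had 129 (knockdown-labelled) and 169 (control), at -0.44 (-0.77 to -0.10). These were the highest and the lowest 2 of the 14.

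CARS2, the cysteinyl enzyme, had 223 footprints in the knockdown-labelled library and 281 in the control, at -0.38 (-0.63 to -0.13). HARS2, the histidyl enzyme, had 197 (knockdown-labelled) and 241 (control), at -0.34 (-0.61 to -0.07). CARS2, HARS2, EARS2 and AARS2 were the 4 with intervals below 0, a number that was 3 with plain totals, without HARS2, and 2 with the deposited RPKM, without HARS2 and EARS2. HARS2 and HARS are closely related neighbours whose spans overlap on opposite strands of chromosome 5, so how their reads were divided is uncertain.

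IARS2, the isoleucyl enzyme, was by far the most counted mitochondrial member, with 1245 footprints in the knockdown-labelled library and 1275 in the control, at -0.08 (-0.19 to 0.03). Its upper bound of 0.03 lies under the lower bound of all of the 6 cytosolic enzymes that were higher. The other 8 with intervals that held 0 ran from VARS2 at -0.20 to NARS2 at 0.32, with LARS2 at -0.09, FARS2 at -0.04, TARS2 at 0.01, YARS2 at 0.05, PARS2 at 0.07 and SARS2 at 0.23. MARS2 had 40 footprints (knockdown-labelled) and 49 (control), and WARS2 22 (knockdown-labelled) and 17 (control), both under the filter. The 16 together summed to 3525 footprints in the knockdown-labelled library, 0.0942% of it (0.0911% to 0.0973%), and to 3707 in the control, 0.0977% (0.0945% to 0.101%). The intervals of these shares, which use plain totals, overlapped. On the scaled totals used for the log2 ratios here, the ratio of the sums was -0.12 (-0.19 to -0.05), against -0.052 with plain totals. Whether the mitochondrial sum was lower thus turned on the scaling.

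Set side by side, the cytosolic enzymes had a median log2 ratio of 0.14, running from -0.79 to 0.998, and the mitochondrial ones a median of -0.06, running from -0.55 to 0.33, while all 7050 genes had a median of -0.02. The mitochondrial median turned positive, at 0.06, with the deposited RPKM, a scaling that moved the median of all genes by 0.12. The difference of the medians, cytosolic minus mitochondrial, was 0.20 and ran from 0.17 to 0.27 over the alternatives run. Plain totals and size factors shift every log2 ratio by the same amount, so they could not move this difference. The range comes from the other alternatives. The difference is a description of 2 sets whose ranges overlap, and the members are not replicates of a condition.

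The contrast was also drawn within each amino acid, by subtracting the log2 ratio of the mitochondrial enzyme from that of its cytosolic counterpart. Of 17 pairings, in which EPRS and FARS2 each stand 2 times, 12 had both enzymes measured. The difference was above 0 beyond counting error in 3, below in 1 and held 0 in 8. It was 1.37 (1.11 to 1.63) for AARS minus AARS2, 0.82 (0.48 to 1.17) for EPRS minus EARS2 and 0.65 (0.22 to 1.08) for SARS minus SARS2. The pairs for alanine and serine thus split by compartment, since the mitochondrial enzymes were lower or held 0. For phenylalanine, FARSA minus FARS2 was -0.75 (-1.16 to -0.34), while FARSB minus FARS2 was 0.24 (-0.13 to 0.62). Tyrosine gave the difference closest to 0, at -0.03 (-0.32 to 0.26) for YARS minus YARS2. The glycyl enzyme has no separate mitochondrial gene, and WARS2 was too shallow to be paired with WARS.

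Per length, the 2 compartments were apart in level in both libraries. Footprint RPKM had a median of 92.2 over the 15 cytosolic enzymes in the knockdown-labelled library and 70.7 in the control. The 14 mitochondrial enzymes had medians of 19.1 RPKM (knockdown-labelled) and 16.2 RPKM (control). In the control the lowest measured cytosolic level was that of VARS at 43.7 RPKM, and IARS2 at 65.8 was the 1 mitochondrial enzyme above it.

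The order at the top changed between the libraries. In the control YARS stood first at 250.2 RPKM, ahead of GARS at 230.8, HARS at 139.1, AARS at 117.4 and SARS at 107.6. In the knockdown-labelled library GARS stood first at 443.2 RPKM, ahead of YARS at 276.3, AARS at 224.8, SARS at 215.0, WARS at 141.5 and HARS at 139.4. WARS, at 65.2 RPKM in the control, was there level with IARS2 and with EPRS at 64.8. The lowest measured level was that of VARS2, at 8.60 RPKM, in the knockdown-labelled library, and that of SARS2, at 9.01 RPKM, in the control.

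**Figure D3:**
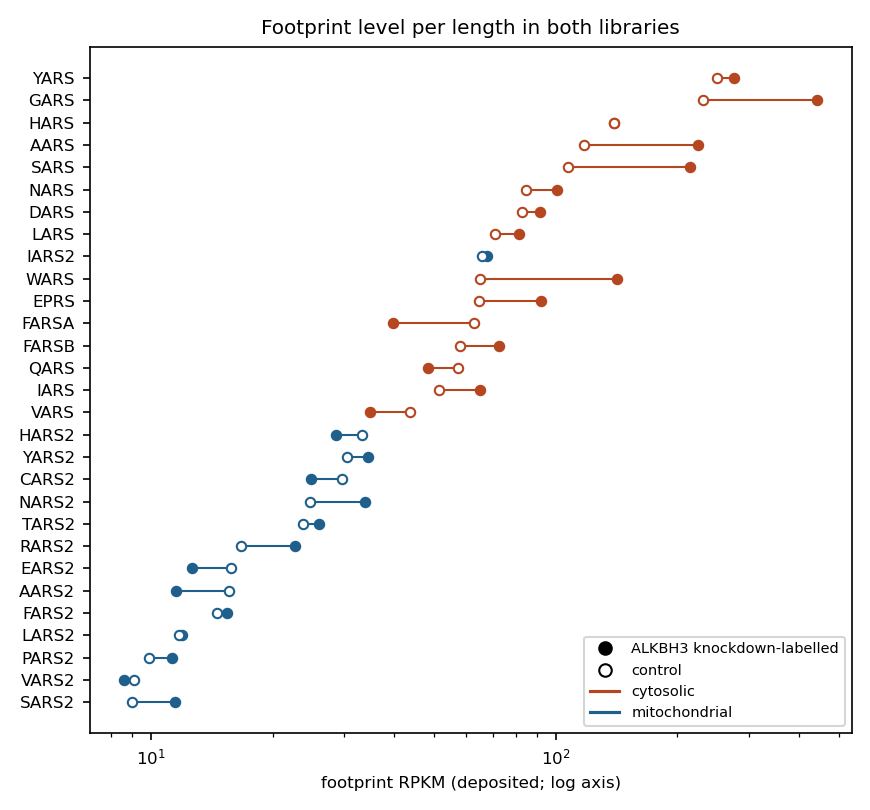
Deposited footprint RPKM (log axis) of the 29 measured synthetases in the knockdown-labelled library (filled) and the control library (open), ordered by the control level, with lines joining both values of a gene. Cytosolic enzymes fill the upper part with IARS2 among them, and GARS, AARS, SARS and WARS have the long lines to the right.

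Structural class and complex membership did not split the cytosolic enzymes cleanly. Class I members had a median of 0.08 over 7 measured of 10, and class II members 0.17 over 8 of 10. Among the 4 leading enzymes, AARS, GARS and SARS are class II and WARS is class I, while the lowest, FARSA, is class II. The 5 measured of 8 enzymes of the multi-synthetase complex (EPRS, IARS, LARS, DARS and QARS) had a median of 0.08, with 1 interval above 0 and 1 below. The 10 measured of 12 outside it had a median of 0.17, with 5 above and 2 below, and all 4 leading enzymes were among these 10. Over all genes 18.2% of intervals lay above 0 and 22.3% below. In the mitochondria, class I members had a median of -0.09 and class II members 0.01, over 7 each.

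Partners of tRNA charging were examined beside the enzymes, and XPOT stood out. XPOT, which exports tRNAs from the nucleus and is itself a known ATF4 target, had 872 footprints in the knockdown-labelled library, against 442 in the control, at 0.93 (0.77 to 1.10). Of the scaffolds of the multi-synthetase complex, AIMP1 had 582 footprints (knockdown-labelled) and 585 (control), at -0.05 (-0.22 to 0.11). AIMP2 had 932 (knockdown-labelled) and 999 (control), at -0.15 (-0.28 to -0.02), and EEF1E1 178 (knockdown-labelled) and 163 (control), at 0.08 (-0.23 to 0.39). All 3 scaffolds lay well below XPOT. DTD1, which removes D-amino acids from tRNA, was at -0.16 (-0.33 to 0.02), DTD2, of like function, at 0.24 (-0.19 to 0.67), and TRNT1, which adds the CCA end, at 0.08 (-0.24 to 0.40). Of the mitochondrial partners, QRSL1, a subunit of the complex that turns glutamyl- into glutaminyl-tRNA, was at 0.24 (-0.22 to 0.69), and MTFMT, which formylates the initiator methionyl-tRNA, at -0.39 (-0.86 to 0.07). Of the 9 measured of 14 partners listed, 1 interval lay above 0, 1 below and 7 held 0, where 18.2% of all genes lay above and 22.3% below. GATB, SEPSECS and PSTK, and TARSL2, a paralogue of the threonyl enzyme, were under the filter, with between 3 and 52 footprints a library. AARSD1 and GATC were not analysed here.

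ATF4 targets other than synthetases had a median of 0.95 over 23 measured of 30, with 18 intervals above 0, 1 below and 9 genes at least 2-fold higher. By the interval bound nearest 0, ASNS, at 2.02 (1.88 to 2.17), TRIB3 and CTH led them. The 4 leading synthetases lay near that median and the other 11 measured cytosolic ones below it. The ATF4 list, like the others, was chosen with earlier results of these data known, so its median is a description only. Elongation factors, which bring charged tRNA to the ribosome or move it along, had a median of -0.22 over 4 measured cytosolic members, with 1 interval above 0 and 3 below, and of 0.11 over 4 mitochondrial ones, with 1 above and 0 below. The order of these 2 medians was thus the opposite of that of the synthetases, but each rests on 4 genes and the ranges overlapped. Cytosolic factors ran from EEF1D at -0.78 to EEF1A1 at 0.45, and mitochondrial ones from GFM2 at -0.07 to TSFM at 0.61. The median of 56 proteins of the mitochondrial ribosome was -0.10, with 4 intervals above 0 and 19 below. For all these lists, the shares over all genes were 18.2% above 0, 22.3% below and 0.879% at least 2-fold higher.

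**Figure D4:**
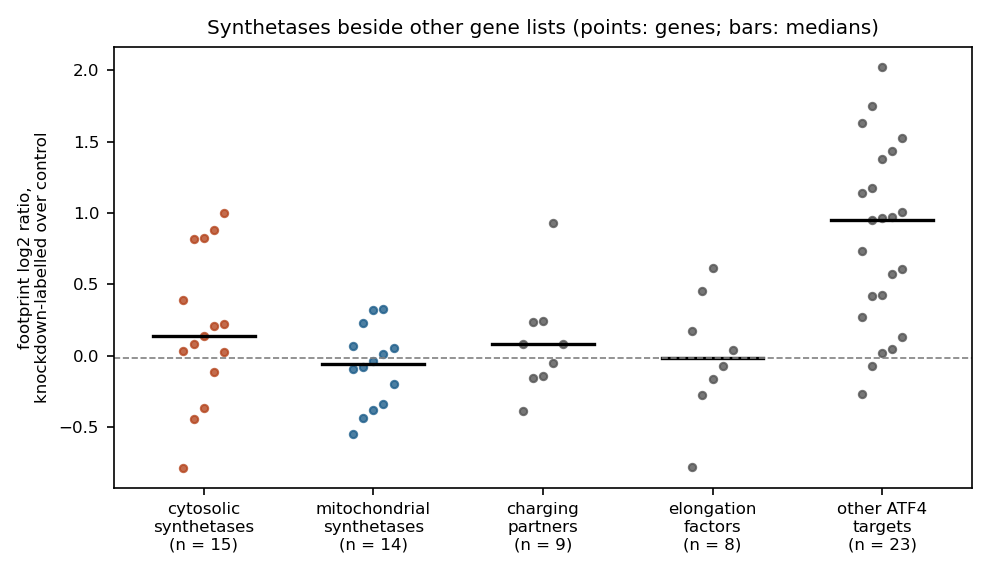
Footprint log2 ratio of each measured gene (points) and the median (bars) for cytosolic synthetases, mitochondrial synthetases, charging partners, elongation factors and ATF4 targets other than synthetases, with the median of all genes as a dashed line. The cytosolic set spreads from -0.79 to 0.998 around a median of 0.14, while the other ATF4 targets centre on 0.95.

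Promoters were searched for the C/EBP-ATF response element, the site through which ATF4 is known to act, since several members were higher together. RefSeq promoters (GRCh38.p14, 250 bases before to 50 after a gene start) were matched for 30 of 36 members by current symbol, 16 cytosolic and 14 mitochondrial. The letters TTGCATCA, on either strand, were found in 6 of the 16 cytosolic and 0 of the 14 mitochondrial genes. Of all 35116 promoters 0.866% held them, and of all 27305 genes 1.08%. With any base at position 3 (TTNCATCA, which includes the first form), matches numbered 7 of 16 and 1 of 14, against 3.62% of promoters and 4.46% of genes. CCAAT, searched on both strands as another promoter element, was in 7 of 16 and 9 of 14, against 39.7% of genes.

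The stretches that hold a match, in 7 cytosolic enzymes and 1 mitochondrial one, are shown so that the letters around it can be read. Each runs 5′ to 3′ on the strand of the gene, with the match in capitals, on GRCh38.p14.
AARS, chr16:70289646-70289733, minus strand: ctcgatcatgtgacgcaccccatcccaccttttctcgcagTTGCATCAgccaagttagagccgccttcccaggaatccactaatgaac
GARS, chr7:30594798-30594892, plus strand: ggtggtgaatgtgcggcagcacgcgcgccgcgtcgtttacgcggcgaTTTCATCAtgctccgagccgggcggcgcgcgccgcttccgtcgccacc
IARS, chr9:92293678-92293777, minus strand: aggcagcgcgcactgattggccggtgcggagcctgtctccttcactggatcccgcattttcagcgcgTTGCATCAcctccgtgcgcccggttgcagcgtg
MARS, chr12:57487988-57488087, plus strand: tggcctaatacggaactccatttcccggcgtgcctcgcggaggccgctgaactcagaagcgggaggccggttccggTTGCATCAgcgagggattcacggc
CARS, chr11:3057404-3057503, minus strand: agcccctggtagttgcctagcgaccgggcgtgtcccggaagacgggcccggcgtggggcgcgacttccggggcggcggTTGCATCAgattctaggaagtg
TARS, chr5:33440885-33440984, plus strand: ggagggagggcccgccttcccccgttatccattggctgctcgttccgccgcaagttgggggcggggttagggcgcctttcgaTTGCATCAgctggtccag
NARS, chr18:57621813-57621916, minus strand: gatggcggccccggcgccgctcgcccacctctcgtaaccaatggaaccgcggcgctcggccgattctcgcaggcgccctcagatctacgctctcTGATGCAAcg
YARS2, chr12:32756047-32756134, minus strand: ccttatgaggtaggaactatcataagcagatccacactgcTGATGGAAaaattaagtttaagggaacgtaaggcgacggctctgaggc

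Counted from the gene start, with -1 the last base before it and 1 the first transcribed base, the match began at -187 in AARS, -33 in GARS, -13 in IARS, -4 in MARS, -2 in CARS, 3 in TARS and 15 in NARS. The matches of IARS, MARS, CARS and TARS thus lay close to the start. Those of NARS and of YARS2, which began at -197, were on the opposite strand. GARS and YARS2 had the form with another base at position 3. CARS, GARS and TARS have 2 listed starts each, and the match was at 1 of them.

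Measured cytosolic enzymes with and without the match overlapped in their footprint ratios, and whether the ratios go with the match was not tested. AARS and GARS, both at 0.82, hold one, and so do IARS at 0.22 and NARS at 0.14, whose intervals held 0. SARS at 0.88 and WARS at 0.998 hold none in either of their 2 listed windows, which says only that these letters are not in those windows. EPRS at 0.39, FARSB at 0.21, HARS at -0.12, QARS at -0.37 and FARSA at -0.79 hold none either. The measured cytosolic enzymes with a match thus all had ratios above 0, and those without one lay on both sides of 0. MARS, CARS and TARS hold the exact letters but had too few footprints for a ratio. Across the 5779 measured genes with a listed promoter, the 40 with TTGCATCA had a median log2 ratio of 0.23 and the rest a median of -0.02. The 40 include AARS, IARS and NARS themselves. With the looser form TTNCATCA, the 164 genes that hold it, GARS and YARS2 also among them, had a median of 0.08 and the rest again -0.02.

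**Figure D5:**
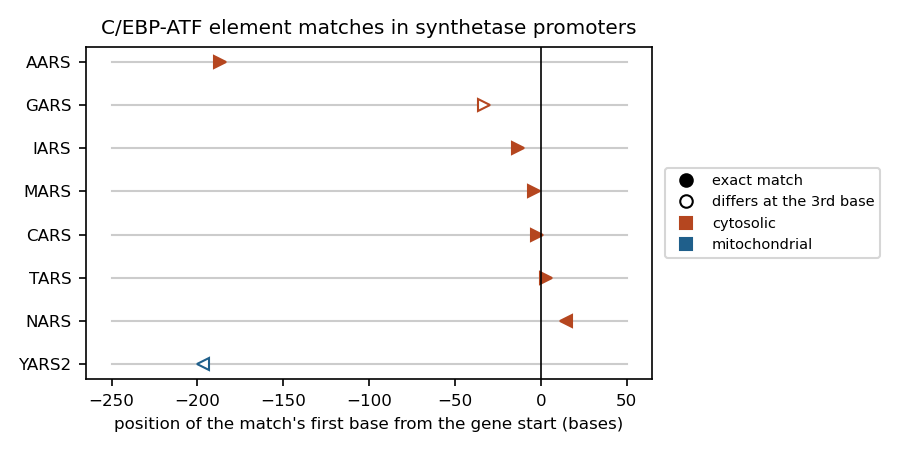
Position, in bases from the gene start, of each match to the C/EBP-ATF element in the promoters of 7 cytosolic enzymes and 1 mitochondrial enzyme, with triangles pointing along the strand of the match, filled where the match is exact and open where it differs at the 3rd base. Grey lines span the 300 bases searched, and 4 matches lie close to the start.

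RNA counts were too few to say whether the footprint differences had a counterpart in RNA. Of the 36 synthetases, 32 had under 10 RNA counts in both libraries, 9 had 0 in the knockdown-labelled library and 20 had 0 in the control. Among the 29 with enough footprints 17 had 0 control RNA counts, and over protein-coding genes with at least 100 footprints 46.6% did, so the shortage is general. In the knockdown-labelled library GARS had 4 RNA counts, AARS 7, SARS 9 and WARS 2, and in the control all 4 had 0. MARS passed the RNA filter of 100 reads with 103 RNA counts in the knockdown-labelled library and 44 in the control, a log2 ratio of 0.78 (0.27 to 1.29), where 15.0% of 1311 genes with enough RNA had an interval above 0. MARS had no footprints, and its span overlaps that of DDIT3 on the opposite strand, which had 60 RNA counts (knockdown-labelled) and 27 (control). KARS had 41 RNA counts (knockdown-labelled) and 12 (control), and HARS 62 (knockdown-labelled) and 32 (control). No member passed both filters, so no change in footprints over RNA is given at 100 reads.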

How the data were processed

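SNU-668 footprint and RNA libraries were compared, 1 of each per shRNA, 4 in all. Per the submitters' processing notes FastQC, cutadapt, Bowtie, STAR and hg19 were used, with no versions or roles. The sources used here do not name the counter or how it treated strand and multi-mapping reads. The deposited values are the authors' whole-number read counts per gene and their RPKM. A deposited ratio of footprints to RNA was not used.

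Log2 ratios were computed from the counts with a prior count of 0.5, on totals scaled by TMM factors over the whole table (1.02 knockdown-labelled and 0.977 control for footprints, 1.04 knockdown-labelled and 0.958 control for RNA; edgeR 4.0.16, R 4.3.3). Intervals (95%) come from the counts alone; since reads copied by PCR were not marked per molecule, they and the floor of 3 counts for a count of 0 cover counting error only. An interaction model would leave no residual degree of freedom. Genes needed 100 reads over both libraries of an assay. At least 2-fold means a log2 ratio of at least 1 in size with an interval that leaves out 0. The same calculation was run on simulated counts that hold counting error only, so that run does not cover the wider spread between these libraries. Current symbols, found for 16248 identifiers, served to find promoters and list members.

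All 36 members are named, as are the charging partners. The members and the lists were chosen with earlier results of these data known. Alternatives were plain totals, median-of-ratios size factors (DESeq2 1.42.0), RPKM plus 0.1, filters of 20 and 1 reads, a prior of 5, totals without mitochondrially encoded or with protein-coding genes alone, a 1.5-fold minimum, means, and medians without certain members. One, added after seeing the data, kept members with at least 5 footprints per RPKM. Protein features were planned and not analysed here.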

Additional observations from a re-analysis of the deposited data

How the results depend on the processing

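No paired analysis was possible because each group has 1 library, for which reason leaving out replicates could not be run either. A median was taken as moved when it shifted by more than the pooled counting error of its members. The cytosolic median of 0.14 was 0.21 with plain totals, 0.26 with RPKM, 0.19 as a mean and 0.21 without members that overlap a gene on the opposite strand; the mitochondrial one was 0.060 with RPKM. Plain totals gave 0.49 for the summed cytosolic and -0.052 for the summed mitochondrial footprints. With plain totals, size factors and RPKM, 1 cytosolic enzyme (WARS) was at least 2-fold higher; with a 1.5-fold minimum 4 were higher and 1 lower, against 4.89% and 4.62% of all genes. With RPKM, 2 mitochondrial and 2 cytosolic intervals lay below 0 and 9 cytosolic ones above, where 29.5% of all genes had an interval above 0 and 13.1% below. Genes at least 2-fold higher and lower were 62 and 30 over the whole table, 81 and 21 with plain totals, 92 and 19 with RPKM, 201 and 111 at 20 reads, and 222 and 144 at 1 read, where more genes were tested. Of 234 values of single members under an alternative, 227 stayed within their counting interval, and the 7 that moved were all RPKM values. The filters of 20 and 1 reads cannot change the ratio of a single member, so their values among the 227 stayed by construction. The sign changed in 5 values, in FARS2, HARS, IARS2 and LARS2, none of whose intervals left out 0. The difference of medians was 0.23 among members with at least 5 footprints per RPKM. At a filter of 20 reads HARS gave a change in footprints over RNA of -0.62 (-1.25 to 0.004), an interval that held 0. HARS overlaps DND1 on the same strand, which had 128 RNA counts in the knockdown-labelled library and 129 in the control. How RNA reads were divided between them is uncertain. Few reads limit the comparison for MARS2 and WARS2 and for RNA.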

Other observations

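RNA was counted on the opposite strand of several synthetase genes whose own rows held almost none. Overlapping WARS, the antisense gene RP11-638I2.8 had 194 RNA counts in the knockdown-labelled library and 118 in the control, while WARS had 2 (knockdown-labelled) and 0 (control). At LARS, RP11-118M9.3 had 142 (knockdown-labelled) and 82 (control), while LARS had 1 in each. At CARS, CARS-AS1 had 109 (knockdown-labelled) and 40 (control), while CARS had 6 (knockdown-labelled) and 0 (control). The 3 antisense genes had 0 footprints in both libraries. Whether these RNA counts come from the antisense genes or from the synthetases was not tested.

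EARS2 and UBFD1, which lie head to head on chromosome 16 and overlap by a few bases, were both lower, with 129 footprints (knockdown-labelled) and 169 (control) for EARS2, and 352 (knockdown-labelled) and 539 (control) for UBFD1. HARS and HARS2, which share a start region, were at -0.12 and -0.34, and the difference of 0.22 (-0.08 to 0.52) held 0. These pairs were picked out after their values were seen.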
